A study of Mus musculus with 3 samples.

Results

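The Wnt ligand genes described here are the 10 that lie outside the paired Wnt clusters of the mouse genome: Wnt2, Wnt2b, Wnt4, Wnt5a, Wnt5b, Wnt7a, Wnt7b, Wnt8b, Wnt11 and Wnt16. The rule lists them by name and uses no threshold on coverage. They are 10 of 20661 protein-coding genes on chromosomes 1 to 19, and each was read over its mm10 span and 5 kb on either side. These regions hold 2339 of the 12313737 bins of 200 bp in the deposited table. The readout is MBD-seq, in which DNA fragments with methylated CpG sites are captured by a methyl-CpG-binding domain protein and sequenced, so coverage reflects methylated DNA and says nothing of expression.

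The material was organoids, three-dimensional epithelial cultures in Matrigel, grown from the proximal colon of male mice about 40 days old that were heterozygous for a Cre-activable BrafV600E allele (Braf+/LSL), which all 3 groups carry. In the first group, called EV, the organoids had received the lentiviral backbone alone and grew in full medium, which holds conditioned media with Wnt3a, R-spondin and Noggin, and EGF. In the second, Braf full medium, Cre delivered by lentivirus had switched the allele on and the medium was the same. In the third, Braf Base medium, organoids with the activated allele grew in medium without the stem-cell niche factors. All were cultured for 5 months and then for 3 weeks more, and each group is 1 library, so differences between libraries cannot be set against replicates, and p-values are left out. The labels do not say how many mice or clones a library came from, and the active allele cannot be checked here, since MBD-seq does not show recombination.

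Wnt proteins are secreted, lipid-modified ligands that bind Frizzled receptors with LRP co-receptors and stabilise beta-catenin, or act through Frizzled, Ror and Vangl proteins on cell polarity and movement without it. In the colon, Wnt signalling keeps the stem cells at the crypt base, and the ligands come from both epithelium and the stroma below it. Dense CpG methylation at a gene's start is commonly found at genes that are not transcribed, while methylation inside a gene body is common in transcribed genes too.

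The stretch before a start shows how many CpG sites could be captured there. The promoter table of RefSeq on GRCm38.p6, the assembly that mm10 names, held 11 starts of 8 members and none of Wnt5a or Wnt7b, so those 2 genes are described by their low and high ends in coordinate order. Over 250 bases before to 50 bases after a start, the median over 20084 promoters was 14 CpG sites, with quartiles of 4 and 25. Wnt4 had 51, more than 99.1% of promoters, the Wnt5b start at 119544347 had 47, Wnt11 45, Wnt2b 43, Wnt7a 42 and Wnt2 27. Wnt16 had only 10 and Wnt8b only 6, and the other 2 starts of Wnt5b had 4 and 7. The 5 sequences shown are the 250 bases before a start, 5′ to 3′ on the gene's strand, with each CpG (the letters CG, which read the same on both strands) in capitals. They were picked because the windows of 1 kb to each side of the first 3 starts gained coverage in Braf Base medium against EV, Wnt7a is another CpG-rich start whose window did not, and Wnt8b is a CpG-poor start for contrast. Wnt4 is chr4:137277385-137277634 on the forward strand, Wnt5b chr6:119544348-119544597 on the reverse strand, Wnt16 chr6:22287977-22288226 on the forward strand, Wnt7a chr6:91411354-91411603 on the reverse strand and Wnt8b chr19:44493222-44493471 on the forward strand.
Wnt4: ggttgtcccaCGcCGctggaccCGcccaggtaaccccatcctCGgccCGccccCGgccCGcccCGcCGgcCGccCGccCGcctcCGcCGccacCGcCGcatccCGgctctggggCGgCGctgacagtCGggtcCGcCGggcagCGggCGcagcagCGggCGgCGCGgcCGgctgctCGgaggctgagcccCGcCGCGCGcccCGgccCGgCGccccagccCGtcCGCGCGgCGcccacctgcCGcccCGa
Wnt5b: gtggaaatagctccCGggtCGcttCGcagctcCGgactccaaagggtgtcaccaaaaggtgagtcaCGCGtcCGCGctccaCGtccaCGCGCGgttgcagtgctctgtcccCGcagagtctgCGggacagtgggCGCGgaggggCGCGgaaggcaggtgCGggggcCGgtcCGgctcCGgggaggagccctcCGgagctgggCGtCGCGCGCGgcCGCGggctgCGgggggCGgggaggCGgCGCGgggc
Wnt16: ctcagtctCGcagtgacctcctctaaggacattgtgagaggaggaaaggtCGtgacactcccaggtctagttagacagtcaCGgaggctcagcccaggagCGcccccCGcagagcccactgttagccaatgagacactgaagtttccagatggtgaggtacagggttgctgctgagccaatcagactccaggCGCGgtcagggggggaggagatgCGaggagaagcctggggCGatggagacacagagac
Wnt7a: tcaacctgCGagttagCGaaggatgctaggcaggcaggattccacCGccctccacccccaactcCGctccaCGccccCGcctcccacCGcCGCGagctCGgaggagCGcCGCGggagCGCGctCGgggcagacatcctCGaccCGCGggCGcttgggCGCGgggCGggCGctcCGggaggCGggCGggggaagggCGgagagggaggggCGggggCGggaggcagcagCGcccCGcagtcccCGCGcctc
Wnt8b: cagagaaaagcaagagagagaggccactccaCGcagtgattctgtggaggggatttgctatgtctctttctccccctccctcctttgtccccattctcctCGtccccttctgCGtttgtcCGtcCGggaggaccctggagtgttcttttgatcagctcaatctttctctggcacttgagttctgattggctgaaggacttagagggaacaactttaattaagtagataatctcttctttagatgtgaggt

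Normalised coverage, the unit of all levels below, is the deposited value taken back to a linear scale and stripped of its floor, averaged over the bins of a window. The libraries held 12530155 read overlaps in EV, 20914446 with Braf in full medium and 14850571 with Braf in Base medium, or an estimated 5041726, 8648828 and 5985362 reads. The Braf full medium library stood apart through a high background: only 43.3% of its bins held no read, against 87.2% in EV and 83.0% in Braf Base medium, and its background per bin was 0.0452 against 0.00882 and 0.00813. Differences that involve this library at low coverage move with that background, and its part in them was not tested. Ratios come with 95% intervals, computed from the estimated reads by the exact binomial (Clopper-Pearson) method, which cover counting error between 2 libraries and nothing else.

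Gene ends were read in windows reaching 1 kb to each side. With a pseudocount of 0.0597, a log2 ratio of at least 1 made an end gained and one of -1 or below made it lost, provided that the higher library reached 0.119. In Braf full medium against EV, the comparison that asks what Braf activation goes with, 4 members had a gained end, Wnt4, Wnt5a, Wnt7a and Wnt16, where 8.55% of all genes did, and 0 had a lost end, where 1.13% did. Growth without niche factors is asked about by Braf Base medium against Braf full medium, where 0 members had a gained end and 2.02% of genes did, and Wnt7a alone had a lost end, where 5.40% did. In Braf Base medium against EV, 4 members had a gained end, Wnt4, Wnt5a, Wnt5b and Wnt16, where 6.19% of genes did, and 0 had a lost one, where 2.61% did. The 3 comparisons share libraries and are not independent. The median log2 ratio over the 20 member ends was 0.72 in the first comparison, -0.47 in the second and 0.04 in the third, beside 0.66, -0.61 and 0.00 over all 41322 ends. With each library's background subtracted, the medians over all ends were 0.00 in each comparison, and with equal library totals they were 0.44, -0.36 and 0.00. With background subtracted, 3 members were gained in the first, without Wnt7a, where 5.05% of all genes were. In the second, 1 was gained (Wnt5b), where 2.92% were, and 0 lost, where 2.02% were. The same 4 genes were gained in the third, where 6.13% were. With equal library totals the first had the same 3 gained, where 3.81% of all genes were. The second had 2 gained (Wnt4 and Wnt5b), where 9.54% were, and 0 lost, where 0.992% were. The third had the same 4 gained, where 7.46% were.

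**Figure D1:**
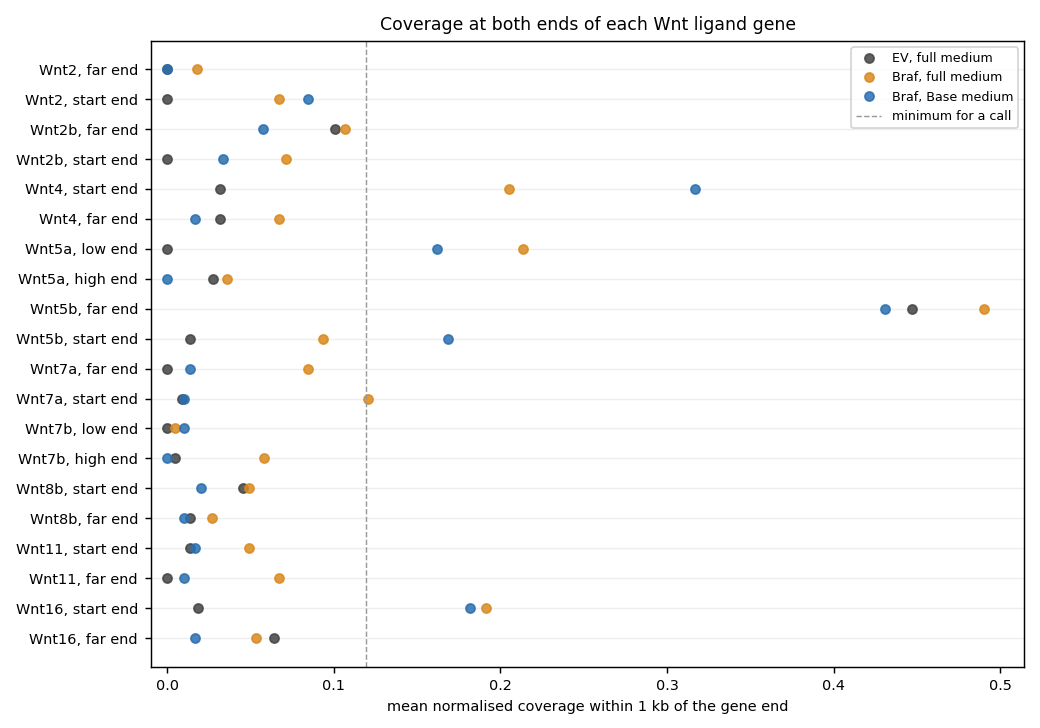
Normalised coverage within 1 kb of both ends of each Wnt gene (1 point per library and end; no replicates). Most ends lie near each library's background, and the Wnt4, Wnt5b and Wnt16 start ends and the Wnt5a low end are higher in both Braf libraries than in EV.

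Over whole regions the members ranged widely, and the order of the genes was similar in the 3 libraries. Wnt7b was first in each, at 0.203 in EV, 0.472 with Braf in full medium and 0.537 with Braf in Base medium. Within EV it was not separable from the next gene, Wnt11 at 0.199 (ratio 1.02, interval 0.870 to 1.20), nor Wnt11 from Wnt4 at 0.188. In Braf full medium Wnt7b was 1.96 times the next gene, Wnt4 (1.73 to 2.22), and in Braf Base medium 2.57 times (2.29 to 2.89). Behind it, Wnt4, Wnt5a and Wnt11 in Braf full medium, and Wnt4, Wnt2b, Wnt5a and Wnt11 in Braf Base medium, each had a ratio to the next of these whose interval held 1. Wnt2 was last in each library, at 0.00665, 0.0442 and 0.0105. The median member region had a coverage of 0.102 in EV, 0.149 with Braf in full medium and 0.124 with Braf in Base medium, and the median over all gene regions was 0.0298, 0.0717 and 0.0277. The log2 ratio of the Wnt7b region in Braf Base medium against EV stood at percentile 99.0 of all 20661 regions and that of Wnt2b at percentile 96.4, with plain ratios of 2.65 (2.38 to 2.94) and 1.70 (1.36 to 2.13). Local coverage, defined below with Wnt4, was not divided out of these ratios. At the low end of Wnt2b it was 0.861 in EV and 1.28 in Braf Base medium, and at that of Wnt7b 1.65 and 1.45. As deposited, Wnt5b, at 0.789 (0.694 to 0.901), and Wnt11, at 0.808 (0.675 to 0.967), were lower in Braf Base medium than in EV. Their log2 ratios stood at percentiles 15.2 and 12.9 of all regions. Equal library totals would shift Braf Base medium against EV by a log2 of 0.193, which brings 1 inside both intervals.

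Where in a gene the coverage sits was read in tiles of 1 kb, called covered from a coverage of 0.298, and called gained or lost by the same log2 limits if the higher library was covered. Of the 455 tiles in member regions, 25 were covered in EV, 32 with Braf in full medium and 33 with Braf in Base medium, or 5.49%, 7.03% and 7.25%, beside 3.30%, 3.22% and 2.97% of tiles over all gene regions. In Braf full medium against EV, 7 tiles were gained and 1 lost, where 0.298% and 0.266% of the 1111641 tiles with all 5 bins were. Between the 2 Braf libraries, Base against full medium, 1 was gained and 1 lost, where 0.141% and 0.264% were. In Braf Base medium against EV, 11 were gained and 3 lost, where 0.298% and 0.510% were, and 4 of the 11 lie in Wnt7b. With equal library totals the split was 4 gained and 6 lost in the first comparison and 17 gained and 0 lost in the second. The shares over all tiles with equal totals are not given here, so these counts cannot be read as particular to the members.

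**Figure D2:**
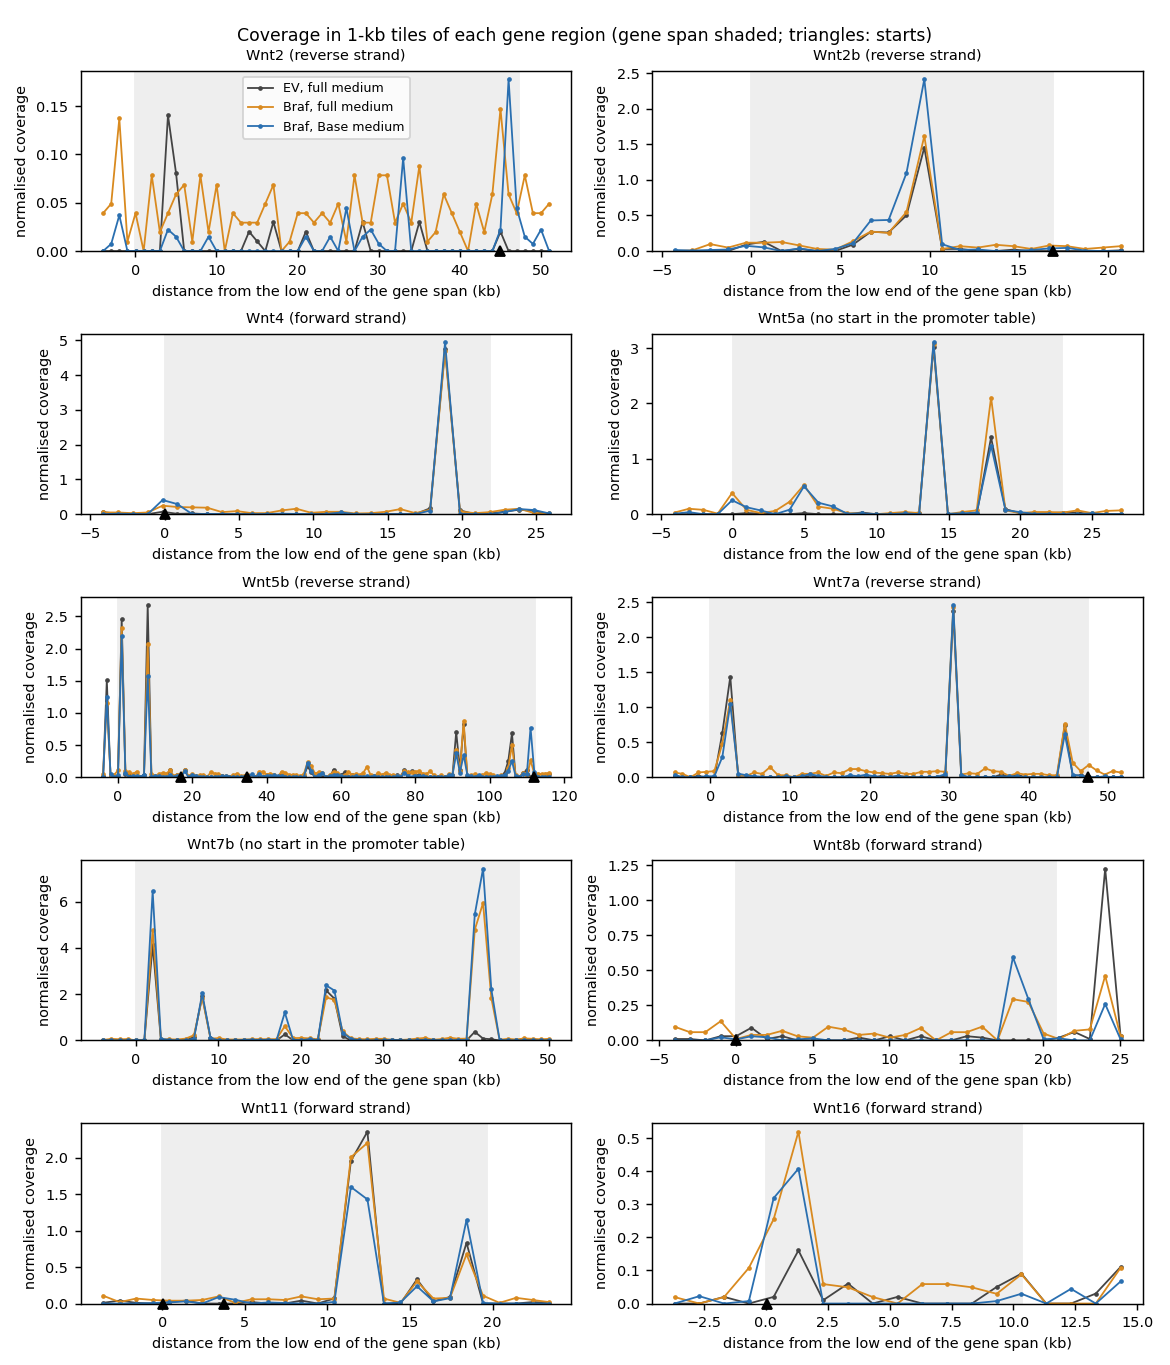
Normalised coverage of each 1-kb tile along the 10 gene regions, against distance in kb, 1 line per library, with triangles at the starts that the promoter table holds. Peaks inside Wnt4, Wnt5a, Wnt5b, Wnt7a and Wnt11 stand at the same places in the 3 libraries, while the Wnt7b peaks nearest its high end reach 5.94 and 7.42 in the Braf libraries (full and Base medium) and 0.371 at most in EV.

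Wnt7b, a ligand needed in lung and kidney development and for growth of brain blood vessels, held the largest change. Its span is chr15:85535437-85581821, and the lncRNA gene AU022754 overlaps its high end. A block of 3 kb and 15 bins, chr15:85576001-85579000, lay inside the span, 2.82 to 5.82 kb below the high end. The block was singled out after its values were seen. Its coverage was 0.167 in EV, 4.18 with Braf in full medium and 5.03 with Braf in Base medium, from an estimated 20, 530 and 820 reads. Both Braf libraries were thus high and EV was low, at 25.0 times EV (16.1 to 41.5) and 30.0 times EV (19.4 to 49.7). The Braf libraries differed from each other by a ratio of 1.20 (1.07 to 1.34), an interval for counting error alone. Over 27380 tiles of gene regions covered in all 3 libraries, the log2 ratio of Base to full medium had quartiles of -0.246 and 0.286. The block's ratio lies between these quartiles.

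The block took 4.37% of the Wnt7b region's coverage in EV, 46.9% with Braf in full medium and 49.6% with Braf in Base medium. Without it, the region's coverage was 0.205, 0.265 and 0.286. In the middle tile of the block, from 85577001, coverage was 0.0803 in EV, 5.94 with Braf in full medium and 7.42 with Braf in Base medium. That is 73.9 times EV (26.9 to 388) in full medium and 92.4 times (33.7 to 483) in Base medium, from 3 estimated reads in EV. Only 6 of the 1111641 tiles had a larger log2 ratio in Braf full medium against EV, and 16 in Braf Base medium against EV. The tile before it went from 0.371 to 4.78 and 5.45, and the tile after it from 0.0502 to 1.83 and 2.21.

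In single bins the block had a pair of peaks. The bin from 85576601 held 0.502 in EV, 7.30 with Braf in full medium and 9.04 with Braf in Base medium, and the bin from 85577801 held 0.100, 8.82 and 10.9. Between them the bin from 85577201 held 0, 2.79 and 3.82, so the dip stood in both Braf libraries at the same place. A further gained tile of Wnt7b, from 85553001, held 0.261, 0.617 and 1.21. Elsewhere in the gene, the tile from 85537001 was not called but held 4.13, 4.77 and 6.45, so Braf Base medium was 1.56 times EV (1.30 to 1.90). The libraries were closer in the tile from 85543001, with 1.91, 1.85 and 2.03, and in the tile from 85558001, with 2.16, 1.86 and 2.38. Neither end of Wnt7b was called in any comparison, with 0, 0.00445 and 0.0101 at the low end and 0.00456, 0.0579 and 0 at the high end. The change inside Wnt7b is therefore not seen in windows at gene ends.

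**Figure D3:**
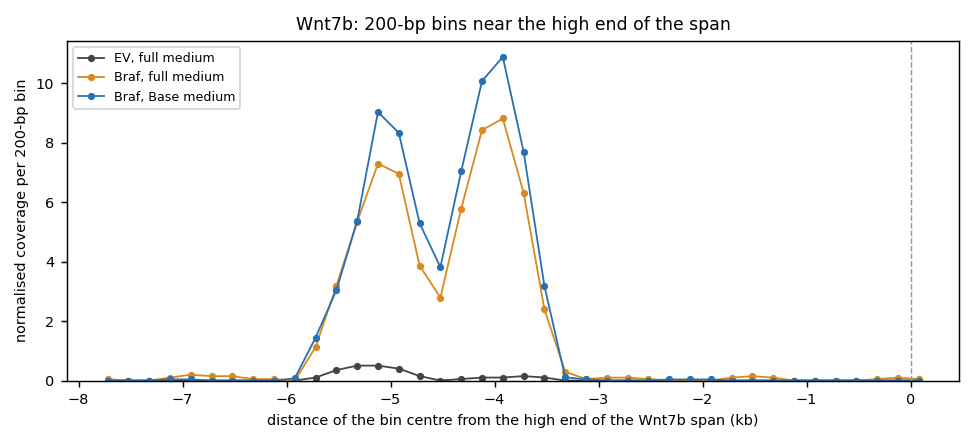
Normalised coverage of each 200-bp bin around the Wnt7b block, against distance in kb from the gene's high end (dashed), 1 line per library. Both Braf libraries rise to a pair of peaks with a dip between them, and EV reaches 0.502 at most.

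Wnt5b, a ligand that acts mostly without beta-catenin and is known from cartilage growth, had a gained start end in Braf Base medium against EV and lost tiles further in. Its span, chr6:119432531-119544824, is the longest of the members at 112 kb. The end of the span that holds the start, 119544824, had 0.0137 in EV, 0.0935 with Braf in full medium and 0.168 with Braf in Base medium. Base medium was 12.3 times EV (2.36 to 611), an interval made wide by the single estimated read in EV, and 1.80 times Braf full medium (0.750 to 4.30), which was not called. Braf full medium was 6.83 times EV (1.18 to 375) but under the minimum for a call. The window around 119544347, the start in the promoter table and also the high end of the protein-coding gene Gm52875, was added after values were seen and held 0.0137, 0.156 and 0.387. There Braf Base medium was 28.3 times EV (5.79 to 1367) and 2.48 times Braf full medium (1.38 to 5.02), and Braf full medium was 11.4 times EV (2.02 to 562). The bins over the promoter entry itself, of which 250 bases are printed above, held 0.0502, 0.0490 and 0.0926, so most of the difference lay elsewhere in the window. The other starts of Wnt5b, at 119467211 and 119449386, held 0.00913, 0.0312 and 0.0101, and 0.0319, 0.0535 and 0.0236, so both stayed low.

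The tile from 119543001, next to this start and inside both Wnt5b and Gm52875, had no read in EV, 0.265 with Braf in full medium and 0.771 with Braf in Base medium. Braf Base medium is 10.3-fold higher if 3 reads are taken for EV and counting error in the Braf library is left aside. The lower 95% limit from the reads counted was 8.03. Braf Base medium was 2.91 times Braf full medium (1.50 to 6.38). This tile is the only member tile gained in Braf Base medium against Braf full medium. Inside the Wnt5b span, and inside the lncRNA gene Gm30690, the tile from 119525001 held 0.823, 0.872 and 0.348, or 0.423 times EV in Braf Base medium (0.228 to 0.768). The tile from 119538001, inside Gm52875 too, held 0.683, 0.500 and 0.252. Both were called lost in Braf Base medium against EV. Reads in these tiles cannot be assigned to Wnt5b or to the gene that overlaps it. Far from the start, the tiles from 119433001 and 119440001 held 2.46, 2.32 and 2.19, and 2.67, 2.08 and 1.58, and the far end 0.447, 0.490 and 0.431.

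The Wnt5b window at 119544347 had the largest log2 ratio at a start among members in Braf Base medium against EV. The 3 other genes with the most similar start coverage, by Euclidean distance over the 3 libraries on the log2 scale with the pseudocount, were Shank3, a synaptic scaffold, Vstm4 and Dclk1, a kinase known as a tuft cell marker in the intestine. Their distances were 0.133, 0.205 and 0.207, and Shank3 held 0.0137, 0.169 and 0.357, Vstm4 0.0183, 0.151 and 0.448, and Dclk1 0.00913, 0.143 and 0.340.

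Wnt4, a ligand of kidney and female reproductive tract development, has the most CpG-rich start of the members. Its start end held 0.0319 in EV, 0.205 with Braf in full medium and 0.317 with Braf in Base medium. Both Braf libraries were above EV, at 6.41 times (1.77 to 31.7) and 9.91 times (2.96 to 47.3), and their own difference was within counting error, at a ratio of 1.54 (0.873 to 2.85). The tile that holds the start, from 137277001, had 0.0703, 0.245 and 0.408, or 5.80 times EV in Braf Base medium (1.62 to 28.2), a gain that was not called with local coverage divided out. For local coverage, tiles over 5 Mb around a gene that were covered in no library were averaged and divided by each library's own background. Around Wnt4 it was 2.23 in EV, 1.36 with Braf in full medium and 1.74 with Braf in Base medium. These values are relative to each library's background and are not in the unit of the start's coverage. Inside the gene a tile from 137296001 was high in all libraries, with 4.76, 4.68 and 4.94.

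Wnt16, known for its part in bone strength, gained coverage in the window around its start. The window at the start at 22288227 held 0.0319 in EV, 0.218 with Braf in full medium and 0.226 with Braf in Base medium. The bins over the promoter entry, which has few CpG sites, held 0, 0.0980 and 0.0741. CpG sites in the rest of the window were not counted. Both Braf libraries were above EV, at 6.83 times EV (1.88 to 33.3) and 7.06 times (2.04 to 34.2), with a ratio to each other of 1.03 (0.566 to 1.97). The tiles from 22288001 and 22289001 held 0.0201, 0.255 and 0.319, and 0.161, 0.519 and 0.408. The far end, at 0.0639, 0.0535 and 0.0168, was not called.

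Wnt5a, a ligand that drives cell polarity and gut lengthening in the embryo and comes from gut mesenchyme, had a gained low end (chr14:28504543). This window had no read in EV, 0.214 with Braf in full medium and 0.162 with Braf in Base medium. These are 6.28-fold and 4.75-fold higher if 3 reads are taken for EV and counting error in the Braf libraries is left aside. The lower 95% limits from the reads counted were 4.69 and 3.44. The gain in Braf Base medium was not called with windows of 2 kb. The tile from 28504001 held 0, 0.382 and 0.252. Further in, the tile from 28509001 held 0.0201, 0.529 and 0.504, or 26.4 times EV (3.38 to 862) and 25.1 times (3.28 to 814). In both tiles the Braf libraries were high and EV had a read or none. The tile from 28518001 was alike in the 3 libraries, with 3.02, 3.08 and 3.10, and the high end stayed low, with 0.0274, 0.0356 and 0.

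Wnt7a, a ligand of limb and uterine patterning, has a start with 42 CpG sites, and its coverage was high in 1 library alone. The start end held 0.00913 in EV, 0.120 with Braf in full medium and 0.0101 with Braf in Base medium. Braf full medium was 13.2 times EV (1.52 to 450), and Braf Base medium 0.0840 times Braf full medium (0.00164 to 0.485). The far end of Wnt7a was highest in the same library, with 0, 0.0846 and 0.0135. So was the median over all gene ends, with 0.00913, 0.0579 and 0.00674, so this is not particular to Wnt7a. The level of 0.120 barely met the minimum of 0.119. Neither call was made with background subtracted, equal totals or local coverage divided out. The log2 ratio to EV was 1.39, and it was 1.17 with background subtracted, 1.05 with equal totals and 1.26 with local coverage divided out. With a pseudocount 4 times larger it was 0.535 and not called, and with windows of 2 kb it was 1.44 and called. For Braf Base medium against Braf full medium the log2 ratio was -1.37. It was -1.13 with background subtracted, -0.996 with equal totals, short of the limit of -1, and -1.26 with local coverage divided out. The window also reaches the lncRNA gene Gm30437. Inside the gene, the tile from 91394001 held 2.37, 2.43 and 2.45.

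**Figure D4:**
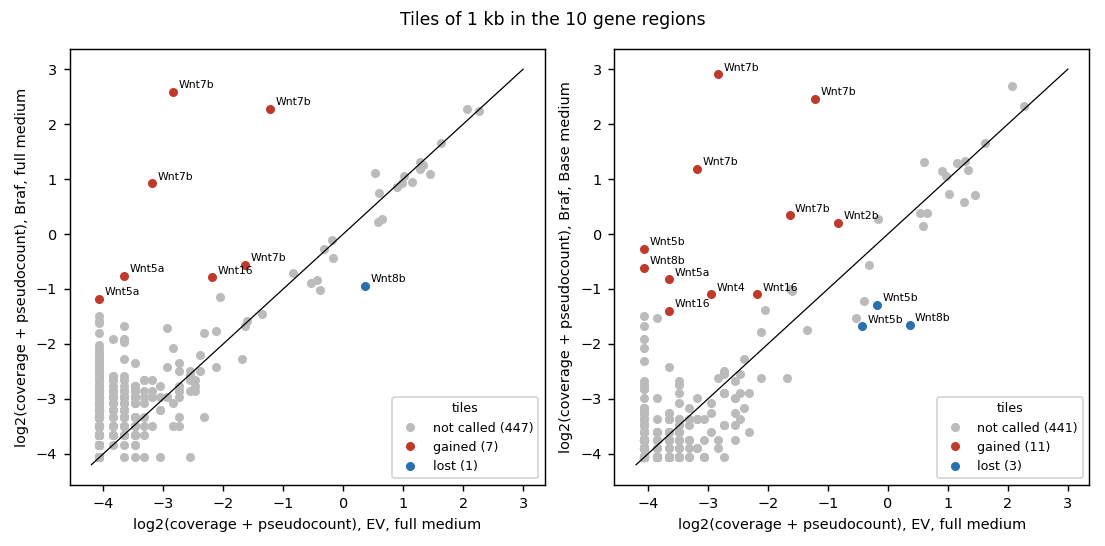
Normalised coverage of each member tile in a Braf library against EV, both as log2 of coverage plus pseudocount, 1 point per tile, with called tiles coloured and named. Tiles with high coverage in EV lie near the diagonal, and the Wnt7b block stands far above it in both Braf libraries.

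The remaining members had no called end in any comparison. Wnt2b, a ligand of the intestinal stroma, held 0.100, 0.107 and 0.0573 at its far end and 0, 0.0713 and 0.0337 at its start, which has 43 CpG sites. The far end also lies inside the protein-coding gene St7l. Inside it, the tile from 104953001 held 0.502, 0.549 and 1.10, or 2.18 times EV in Braf Base medium (1.31 to 3.87), a gain not called with local coverage over 5 Mb divided out, and the tile from 104954001 held 1.46, 1.62 and 2.42. Without that division, coverage in these tiles was highest in Braf Base medium while the other 2 libraries were close. Local coverage at the low end of Wnt2b was 0.861 in EV, 1.06 with Braf in full medium and 1.28 with Braf in Base medium. Its part in the difference was not tested.

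Wnt8b, a ligand of the embryonic forebrain, had 0.0456, 0.0490 and 0.0202 at its start. A tile late in the gene, from 44511001, had no read in EV, 0.294 with Braf in full medium and 0.593 with Braf in Base medium. The last is 7.92-fold higher if 3 reads are taken for EV and counting error in the Braf library is left aside. The lower 95% limit from the reads counted was 6.03. The tile from 44517001, in the flank and inside the neighbouring gene Sec31b, went the other way, with 1.22, 0.461 and 0.259, or 0.212 times EV in Braf Base medium (0.107 to 0.387). Local coverage over 5 Mb around Wnt8b, relative to each library's own background, was 1.96, 1.20 and 1.64. With it divided out, the Sec31b tile was not called in Braf full medium against EV but was still lost in Braf Base medium against EV.

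Wnt11, which acts on cell movement and kidney branching, had low coverage at the first start, 0.0137, 0.0490 and 0.0168, in spite of its 45 CpG sites. This start also lies inside the lncRNA gene Gm33770. The second Wnt11 start, at 98838845, had no read in EV, 0.0624 with Braf in full medium and 0.0640 with Braf in Base medium, under the minimum for a call. The tile from 98847001, inside the gene, held 2.36, 2.20 and 1.43, lowest in Braf Base medium, as the region was in the values as deposited. Wnt2, a stromal ligand of lung and placenta, had no covered tile in any library. Its start at 18030445 held 0.00913, 0.0846 and 0.0303, and its tile with most coverage, from 18031001, held 0, 0.0588 and 0.178.

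Tiles covered in all libraries and gained tiles were set against the known starts. Of the member tiles, 21 were covered in all 3 libraries, 20 of them inside a gene span. The sets overlap, since the Wnt2b tile from 104953001 and the Wnt7b tile from 85576001 were covered in all 3 libraries and also gained. In the 8 genes with a known start, 0 of 14 such tiles had their centre within 1500 bp of a start, and the nearest was 2.85 kb away. Of the 6 tiles gained in Braf Base medium against EV in these genes, 4 were within that distance, as were 33 of all 368 tiles, or 8.97%. These are tiles of few genes, and neighbouring tiles share reads. In the 21 shared tiles the median log2 ratio was -0.02 in Braf full medium against EV, with a range of -0.70 to 3.69. In Braf Base medium against EV it was 0.04, with a range of -1.24 to 3.87. Over the 27380 such tiles of all protein-coding gene regions, the medians were -0.10 and -0.08.

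Other genes of the pathway were read from lists chosen with earlier results of these data known, by the same calls at gene ends. Levels printed for a listed gene are those of its called end, unless another end is named. The shares over all genes to set beside their counts are 8.55% gained and 1.13% lost in Braf full medium against EV, 2.02% and 5.40% in Braf Base medium against Braf full medium, and 6.19% and 2.61% in Braf Base medium against EV. Among the 8 ligands in paired clusters, Wnt3 and Wnt10a had a gained end in Braf full medium against EV, Wnt10a a lost one in Braf Base medium against Braf full medium, and Wnt3 a gained one in Braf Base medium against EV. Wnt3, the epithelial ligand of Paneth cells, held 0.0228 in EV, 0.178 with Braf in full medium and 0.242 with Braf in Base medium. Wnt10a held 0.0137, 0.125 and 0.00337, highest in Braf full medium, as Wnt7a was. Its level there was also close to the minimum, and neither of its calls was made with background subtracted or with equal totals.

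Of the 22 receptors and co-receptors measured of 25 names, 4 were gained (all genes 8.55%) and 1 lost (1.13%) in Braf full medium against EV. Base against full medium gave 3 gained (2.02%) and 1 lost (5.40%), and Braf Base medium against EV 5 gained (6.19%) and 1 lost (2.61%). Of the other 3 names, Gpc3 and Gpc4 are not in the table of chromosomes analysed here and Gpr124 is the older symbol of Adgra2. Fzd10, a Frizzled receptor, held 0.0593, 1.05 and 3.55, so that each library stood above the one before. Fzd9 held 0.0365, 0.410 and 0.842 at its start end, but 0.995, 1.02 and 1.09 at its far end, which was not called. Fzd3 held 0, 0.151 and 0.694, and Fzd8 0, 0.0490 and 0.276. Adgra2, the gene lost in both comparisons against EV, held 0.292, 0.116 and 0.111. Ror2, the co-receptor through which Wnt5a acts, was high in Braf full medium alone at its start end, with 0.210, 1.19 and 0.0876. Its far end held 0.260, 0.276 and 0.320 and was not called.

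Of the 9 processing and secretion genes measured of 10, 3 were gained in Braf full medium against EV (all genes 8.55%). Base against full medium gave 1 gained (2.02%) and 1 lost (5.40%), and Braf Base medium against EV 2 gained (6.19%). Notum, the enzyme that removes the lipid from Wnt proteins, held 0.205, 0.864 and 1.84. Trabd2b, a protease that cleaves them, held 0.0548, 1.01 and 0.980. Wls, which carries them to the cell surface, held 0.210, 1.45 and 0.195 at its far end, again high in Braf full medium alone. Its start end held 0, 0.0401 and 0.0135 and was not called.

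Of the 28 genes of beta-catenin independent signalling measured of 29, 2 were gained in Braf full medium against EV, a share near the 8.55% of all genes, and 6 were gained in Braf Base medium against EV (6.19%). Between the Braf libraries, Base against full medium, 4 were gained (2.02%), and 0 were lost in any of the 3 comparisons. Camk2b, a calcium-dependent kinase, held 0, 0.633 and 0.616, and Nfatc2, a calcium-dependent transcription factor, 0.0456, 0.272 and 0.367. Prickle1, a cell polarity protein, held 0, 0.0846 and 0.313 at its start end. The far end of Prickle1 held 0.310, 0.272 and 0.209 and was not called. Of the 4 R-spondins, which strengthen Wnt signals, Rspo2 was gained in both Braf libraries against EV, with 0.00456, 0.521 and 0.549.

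**Figure D5:**
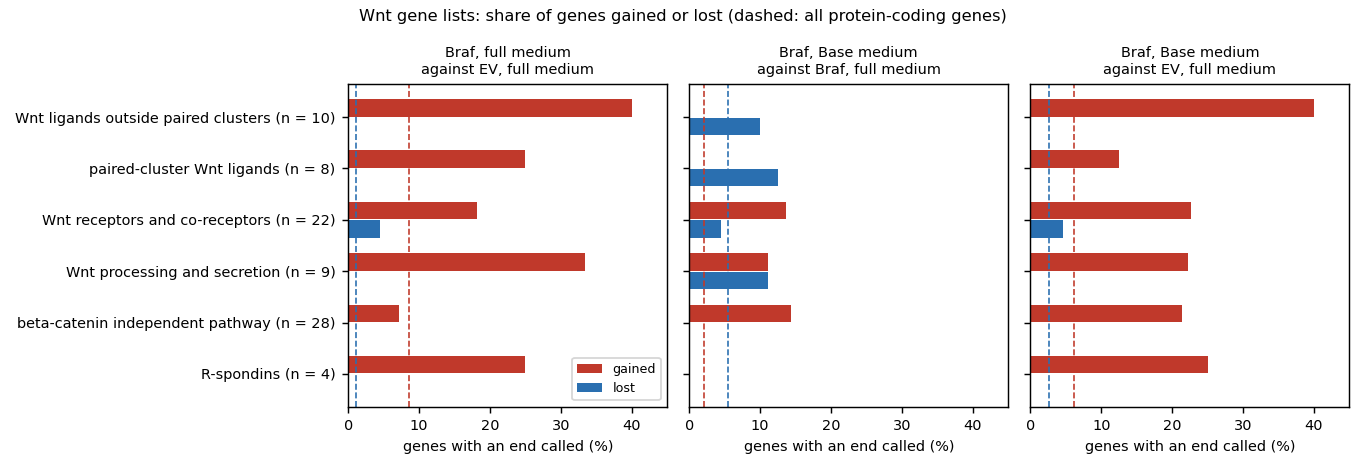
Share of genes (%) with a gained (red) or lost (blue) end in each gene list and comparison, with dashed lines at the share of all protein-coding genes. Of the 10 Wnt genes described here, in the top row, 4 were gained in each comparison against EV and 0 in Braf Base medium against Braf full medium.

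Since MBD-seq gives no expression, the labelled tissue was looked at only through methylation of marker genes, and their part in the results was not tested. Against EV, in Braf Base medium (all genes 6.19% gained and 2.61% lost), 1 of 12 markers of colon epithelium had a gained end (Cdx1), of 8 fibroblast and smooth muscle markers 1 was gained (Vim) and 1 lost (Col1a1), of 6 immune markers 0 were called, and of 6 endothelial and neural markers 4 were gained. Braf full medium against EV (8.55% and 1.13%) gave Cdx1 and Cldn3 gained, Vim and Tagln gained and Col1a1 lost, 0 immune markers and 3 endothelial and neural markers gained. Base against full medium (2.02% and 5.40%) gave Cldn3 and Tagln lost and 2 endothelial and neural markers gained. Braf itself held 0, 0.0401 and 0.00674 at its low end and 0, 0.0624 and 0.0135 at its high end, and was not called.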

How the data were processed

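Methylated DNA from 3 organoid libraries, 1 a group, was captured and read as single reads of 50 bp from fragments of 200 to 400 bp, per the labels' protocols. Per the submitters' processing notes, Bowtie2 and mm10 were used. The Bowtie2 version and the step from reads to bin values are not given in the sources used here. For this series the authors deposited log2 values for bins of 200 bp on chromosomes 1 to 19. Raised from the log2 scale and less a shared floor of 0.0153, each value was a whole number of steps, within 0.001 of a step, and these were taken as read overlaps. The steps were 0.0502 (EV), 0.0490 (Braf, full medium) and 0.0370 (Braf, Base medium). Overlaps times the step gave normalised coverage.

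All calls were made over all 20661 protein-coding genes or all tiles, with Python 3.11.15, numpy 2.4.6, pandas 2.3.3 and scipy 1.17.1. The calling was also run on simulated data. There the changed ends began above the minimum for a call, and the libraries shared a common profile. The simulation therefore does not cover gains from few reads in EV or the higher background of Braf full medium. Gene spans and starts came from RefSeq tables on GRCm38.p6. The members and lists were chosen with earlier results of these data known. Named were all 10 members, up to 4 called genes of a list and comparison, Braf, the 3 genes nearest to the member with the largest start ratio, and for each member its highest tile and most changed called tile; other tiles, and windows at the table's start sites, were added after values were seen. Alternatives were equal totals, background subtraction, a pseudocount 4 times larger, local dosage over 5 Mb, other minimums, windows of 2 kb and spans without flanks.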

Additional observations from a re-analysis of the deposited data

How the results depend on the processing

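No paired analysis was possible because each group held 1 library, and no library could be left out. No log2 ratio of a called window or tile changed sign under any alternative run; of 138 at ends, starts and called tiles, 25 moved beyond their counting interval with equal total overlaps, 12 with a pseudocount 4 times larger and 7 with local dosage divided out, and 14 of 60 with windows of 2 kb. Of the counts, members with a gained end in Braf full medium against EV went from 4 to 0 with the larger pseudocount and to 0 with a minimum 5 times the mean. The shares of all genes there were 2.86% and 3.38%. Members gained in Braf Base medium against EV went from 4 to 1 in both, beside 3.81% and 4.32% of all genes. Gained ends in Braf Base medium against Braf full medium went from 0 to 2 with equal totals (all genes 9.54%) and to 1 with background subtracted (2.92%). The lost one went to 0 in these, with the larger pseudocount, the higher minimum and local dosage. Shares over all tiles are not given for the tile counts that follow. In Braf full medium against EV, tiles gained went from 7 to 4 with equal totals and 28 with a minimum 2 times the mean, and tiles lost from 1 to 6 with equal totals, 2 with the lower minimum, and 0 with local dosage or without flanks. In Braf Base medium against Braf full medium, tiles gained went from 1 to 17 with equal totals, 3 with background subtracted and 2 with the lower minimum, and tiles lost from 1 to 16 with the lower minimum, 2 with local dosage, and 0 with equal totals or the larger pseudocount. In Braf Base medium against EV, tiles gained went from 11 to 18 with the lower minimum and tiles lost from 3 to 1 with the larger pseudocount. The cause was not tested. The Wnt7b block's tiles stayed gained against EV with equal totals, background subtracted and local dosage. Depth limits low windows: many ends held 0 to 4 estimated reads in EV.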
